A study of Rattus norvegicus with 18 samples.

Results

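Trained low responder rats were compared with untrained high responder rats, to ask whether training had moved the gastrocnemius transcriptome of low responders towards or away from that of high responders at rest. The members are the 3 LRTT and the 3 HRT libraries, 6 of the 18 RNA-seq libraries of the study, chosen by their labels. LRT and HRT are rat lines bred from a genetically mixed stock for a low or a high gain in running distance after a standard treadmill programme. The rats used here were males of generation 15. LRTT rats came from the low responder line and ran for 8 weeks on 3 days per week, while HRT rats came from the high responder line and did not train. The 3 LRT rats, of the low responder line and untrained, served as the reference point only. All rats were first tested for running capacity at 10 to 12 weeks of age and tested again at the end of the training period, and the muscle was frozen 48 hours after that last test, so the untrained rats had also run maximal tests. LRTT and HRT differ in breeding and in training at once, and these 2 cannot be told apart in their comparison.

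Gastrocnemius is a calf muscle made mostly of fast fibres, with slow fibres gathered in its deep part. Slow fibres use their own forms of myosin, troponin and tropomyosin, resist fatigue and rely on oxidative metabolism. Endurance training is known to raise mitochondrial content and capillary supply and, to a lesser extent, to shift the contractile proteins towards slower forms. A piece of muscle also holds nerve, fat and vessels, and in bulk tissue a larger number of cells of a type and more RNA per cell of that type cannot be told apart.

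Both readouts available for these groups were used. The first was the number of reads the authors counted on each of 32882 Ensembl genes in each rat, with totals from 25084058 to 36404512 in LRTT, from 32099533 to 36045341 in HRT and from 37849730 to 41446415 in LRT. It allows tests over rats, but none of the 32882 identifiers was paired with a gene symbol by the tables used here. The second was an expression level per gene symbol and group that the authors obtained with the Cuffdiff programme from the pooled replicates, 1 value per group with no SD and no n, in a unit that the files do not name. A symbol had a level in both LRTT and HRT only if the authors had called it in a comparison with HRT and in another with LRTT. The partner was LRT or HRTT, the trained high responders. This left 137 of 568 names. Every column heading of the count table carries a run number that the file does not explain. It was 2 for all 6 LRTT and HRT libraries, and 3, 1 and 1 for LRT replicates 1, 2 and 3, so in comparisons with LRT the run number and the group cannot be told apart. The labelled tissue could not be checked against its defining markers, because 0 of 10 skeletal muscle fibre markers were among the 137 names.

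Among the gene lists, which leave out the cell type markers, the names that stood furthest apart as a group were those of slow contraction. Of 16 listed genes, 7 had a level in both groups. All 7 levels were more than 1.5 times higher in LRTT than in HRT, with a median log2 ratio of 2.48 and a range of 1.35 to 2.87, beside a median of 0.68 over all 137 names. To show where these genes start, the 200 bases before the transcription start are given for the 3 of them with 1 start in the RefSeq table (build GRCr8, which is not the Rnor_6.0 build of the files). Tnnt1 lies at chr1:78348835-78349034 on the plus strand, Ankrd2 at chr1:250796219-250796418 on the plus strand and Myoz2 at chr2:213852779-213852978 on the minus strand. Capitals mark E-boxes (CANNTG, the letters bound by myogenic factors such as MyoD), TATA boxes (TATAAA, or its reverse complement) and the MEF2 motif, searched on both strands.
Tnnt1: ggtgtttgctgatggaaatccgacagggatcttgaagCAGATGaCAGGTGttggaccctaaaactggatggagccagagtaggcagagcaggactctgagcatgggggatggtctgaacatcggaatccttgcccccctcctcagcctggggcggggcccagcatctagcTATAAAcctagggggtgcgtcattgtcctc
Ankrd2: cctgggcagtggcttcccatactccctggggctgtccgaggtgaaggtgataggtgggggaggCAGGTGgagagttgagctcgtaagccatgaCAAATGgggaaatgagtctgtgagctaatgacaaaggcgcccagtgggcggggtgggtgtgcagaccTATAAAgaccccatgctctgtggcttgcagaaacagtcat
Myoz2: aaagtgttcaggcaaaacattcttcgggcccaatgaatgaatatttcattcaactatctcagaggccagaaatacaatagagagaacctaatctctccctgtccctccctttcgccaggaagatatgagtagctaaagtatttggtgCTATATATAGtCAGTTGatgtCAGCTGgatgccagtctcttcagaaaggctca
Each of the 3 windows held 2 E-boxes. At least 1 E-box was present in 57.0% of the 33469 promoter windows of the same length, and how many held 2 was not counted. Tnnt1 had CAGATG and CAGGTG from base 163 to base 151 before the start and a TATA box at bases 30 to 25. Ankrd2 had CAGGTG at bases 137 to 132, CAAATG at bases 107 to 102 and a TATA box at bases 40 to 35. TATA boxes were found in 10.4% of all windows. Myoz2 had no TATA box and held the MEF2 motif CTATATATAG at bases 53 to 44, a motif found in 2.36% of windows, followed by CAGTTG and CAGCTG. These matches describe the letters only and say nothing about binding in these rats. Tpm3, with 3 starts in the table, is not shown. No entry was found for Tnnc1, Myl2 or Sln.

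The pooled level of Tnnt1, the slow form of troponin T, was 98.1 in LRT, 496 in LRTT and 89.1 in HRT. That of Tnnc1, the calcium-binding troponin C of slow and cardiac muscle, was 111 in LRT, 407 in LRTT and 65.0 in HRT. That of Tpm3, the slow tropomyosin, was 98.6 in LRT, 448 in LRTT and 87.1 in HRT. In these 3 genes of the thin filament, the untrained lines differed less from each other than the trained low responders did from either, and the trained rats had the highest level. Myl2, the regulatory light chain of slow and ventricular myosin, had levels of 60.8 in LRT, 218 in LRTT and 42.1 in HRT. Myoz2, a Z-disc protein that binds the phosphatase calcineurin, had levels of 57.5 in LRT, 198 in LRTT and 27.1 in HRT. Ankrd2, an ankyrin repeat protein of slow muscle that responds to stretch, had levels of 11.9 in LRT, 43.3 in LRTT and 7.54 in HRT. For these 6 genes the log2 ratio of LRTT to HRT was between 2.36 and 2.87, against 0.14 to 1.08 for LRT to HRT, so the trained low responders were farther from the untrained high responders than the untrained low responders were. Sln, sarcolipin, a small inhibitor of the calcium pump of the sarcoplasmic reticulum, was the exception, with 56.3 in LRT, 38.1 in LRTT and 14.9 in HRT. Its level in trained low responders lay between those of the untrained lines. The list was chosen with earlier results of these data known, and the authors called these symbols in comparisons that use the same LRTT, LRT or HRT libraries. The count of 7 of 7 is therefore a description and not independent evidence. Tnnt1, Tnnc1, Tpm3, Myl2 and Ankrd2 were called between LRTT and LRT and not between LRT and HRT. Their larger distance from HRT after training follows from how they were listed. All 7 were also called between HRT and HRTT, so a training call was not particular to the low responder line. The other 9 listed genes had no level in both groups. None of the 15 genes of the fast contraction list had one either, and nothing can be said here of fast isoforms.

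**Figure D1:**
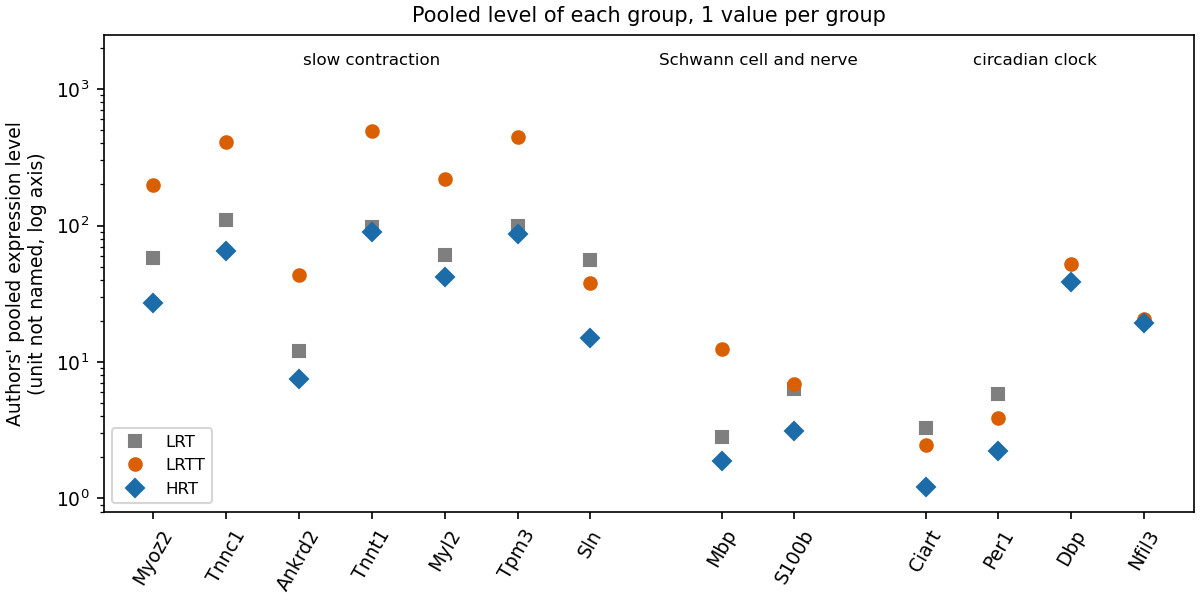
Authors' pooled expression level (log axis, unit not named) of the slow contraction and circadian clock genes that had a level in LRTT and HRT, and of the Schwann cell and nerve markers Mbp and S100b, with 1 value per group. LRTT lies above HRT for all 7 slow contraction genes and above LRT for 6 of them, Sln being the exception. Dbp and Nfil3 have no LRT level.

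The count table shows how many genes stood as far apart as this over the rats themselves. On edgeR's fitted log2 scale, 37 of 13478 tested genes were at least 2.48 higher in LRTT than in HRT, the log2 ratio of the pooled Tnnt1 levels, and 14 of the 37 had an unadjusted p under 0.05. At the ratio of Tpm3, 2.36, the same numbers were 48 and 19. The 2 scales are not the same, and which identifiers belong to the slow contraction genes is not known.

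Mbp and S100b, of the Schwann cell and nerve markers, were also higher in LRTT than in HRT in the pooled levels. Mbp, a structural protein of myelin, had levels of 2.81 in LRT, 12.3 in LRTT and 1.89 in HRT. S100b, a calcium-binding protein of Schwann cells, had levels of 6.39 in LRT, 6.92 in LRTT and 3.12 in HRT. For S100b the low responder groups thus lay close together above HRT. Mbp was called between LRTT and LRT but not between LRT and HRT, and S100b the reverse. Both were more than 1.5 times higher in LRTT than in HRT, with log2 ratios of 2.70 for Mbp and 1.15 for S100b. The 7 markers of slow fibre that are rich in soleus, the neighbouring slow calf muscle, included 3 listed names, Tnnc1, Tnnt1 and Myl2, already given above. The part of nerve or of a deeper piece of muscle in the slow contraction levels was not tested.

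Levels of the 3 listed fat cell markers were highest in untrained low responders. The authors had called each both between LRT and HRT and between LRTT and LRT. That LRT stood apart follows from how they were listed. Plin1, which coats lipid droplets, had levels of 3.10 in LRT, 1.16 in LRTT and 1.29 in HRT. Adipoq, the hormone adiponectin, had levels of 20.3 in LRT, 6.39 in LRTT and 8.30 in HRT. Lep, the hormone leptin, had levels of 1.36 in LRT, 0.26 in LRTT and 0.50 in HRT. Of the 7 adipocyte markers these 3 were listed, and the trained low responders were within 1.5 times of the high responders for 2 of them and below them for Lep. Vwf, the 1 of 7 endothelial markers that was listed, had 3.09 in LRT, 1.91 in LRTT and 1.97 in HRT. It was listed through the same calls. No marker of blood, fibroblast and tendon, smooth muscle, leukocytes, neutrophils, satellite cells or cartilage and bone was listed.

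Among the circadian clock genes, 4 of 20 had a level in both groups, and all 4 were also named by the study in its responder comparison, so they were chosen on these rats. Ciart, a repressor of the clock, had levels of 3.26 in LRT, 2.47 in LRTT and 1.21 in HRT. Per1, a core repressor of the clock, had levels of 5.86 in LRT, 3.86 in LRTT and 2.24 in HRT. For both, trained low responders lay between the untrained lines, with LRTT still 2.04 and 1.73 times HRT. Dbp, an activator driven by the clock, had 52.4 in LRTT and 38.5 in HRT, and Nfil3, a repressor at the same sites, had 20.5 and 19.2, both within 1.5 times.

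Other lists held few names. Of 21 genes of regeneration and developmental muscle, 3 were listed. Igfn1, a Z-disc protein, was 3.26 times higher in LRTT than in HRT. Actc1, cardiac actin, had 14.0 in LRT, 12.5 in LRTT and 8.32 in HRT, just past the 1.5-fold limit, and Ankrd1, a stretch-responsive relative of Ankrd2, was within 1.5 times, with levels of 30.1 in LRT, 9.81 in LRTT and 7.09 in HRT. Of 30 interferon response genes only Ifi27 was listed, with 64.9 in LRT, 85.0 in LRTT and 204 in HRT. Cdkn1a, an inhibitor of the cell cycle and the 1 of 24 atrophy and proteolysis genes listed, had 24.4 in LRT, 14.5 in LRTT and 7.18 in HRT. Ucp2, a carrier of the inner mitochondrial membrane and the 1 of 22 antioxidant genes listed, had 7.81 in LRT, 3.87 in LRTT and 4.08 in HRT. Of 21 calcium and excitation genes, Kcna10, a voltage-gated potassium channel, had 0.66 in LRT, 0.28 in LRTT and 2.05 in HRT, and Adcy1, an adenylyl cyclase, had 0.14 in LRTT and 0.17 in HRT. The study had named 24 responder genes, of which 9 were listed, 4 higher by more than 1.5 times in LRTT, 2 higher in HRT and 3 within. The cardiac myosin heavy chain Myh6 was among the 4, with 0.24 in LRT, 4.87 in LRTT and 1.46 in HRT, and the secreted protein Lgi3 was among the 2, with 0.63 in LRT, 0.35 in LRTT and 2.33 in HRT. No gene of the nuclear oxidative phosphorylation list, the citrate cycle, fatty acid use, glycolysis, angiogenesis, extracellular matrix, inflammation, heat shock, immediate early genes, myokines or the regulators of endurance adaptation had a level in both groups, so the levels are silent on these. None of the 13 symbols of the mitochondrially encoded list was found, but 3 further names are numbered entries of the rat mitochondrial genome sequence, without a gene symbol. Their levels were 748133, 474163 and 27605 in LRT, 1060000, 704706 and 35265 in LRTT, and 210310, 140695 and 8231 in HRT, so LRTT was 5.04, 5.01 and 4.28 times HRT and both low responder groups were above HRT. What these entries encode and how long they are was not determined. They do not measure mitochondrial expression as a whole.

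Over all 137 names, 72 were more than 1.5 times higher in LRTT, 18 were more than 1.5 times higher in HRT and 47 lay within 1.5 times. These names were listed through calls in the same groups and do not stand for all genes. Over all 13478 genes of the count table, the median log2 difference between LRTT and HRT was 0.015, with 1170 genes more than 0.5 higher and 570 more than 0.5 lower on that scale. The names below belong to no list and were chosen after their values were seen. The lowest ratio was that of Gria4, a subunit of glutamate receptors, with 19.3 in LRT, 0.26 in LRTT and 12.3 in HRT. Cish, an inhibitor of cytokine signalling, had 3.84 in LRT, 3.59 in LRTT and 13.9 in HRT. Slc2a13, a carrier of myo-inositol, had 0.83 in LRT, 1.197 in LRTT and 6.20 in HRT. For Cish and Slc2a13 the levels of LRT and LRTT lay within 1.5 times of each other and below that of HRT, while Gria4 was low in LRTT and high in both untrained groups. Scd, which makes monounsaturated fatty acids, had 12.5 in LRT, 1.38 in LRTT and 0.33 in HRT. Cd74, RT1-Da and RT1-Bb, of antigen presentation by MHC class II, were 83.0, 38.3 and 18.5 in LRT, 46.6, 24.0 and 7.94 in LRTT, and 44.3, 21.1 and 6.14 in HRT. These 3 names lay within 1.5 times between LRTT and HRT, while RT1-Db2, of the same class, had 3.19 in LRT, 1.40 in LRTT and 0.55 in HRT, with LRTT 2.54 times HRT. Each of these MHC class II names was called both between LRT and HRT and between LRTT and LRT. That LRT stood apart follows from how they were listed.

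Whether levels in trained low responders lay nearer to HRT than those of LRT depended on how a name came to be listed. Of 130 names with all 3 levels, 71 were nearer to HRT in LRTT than in LRT and 59 were farther on the log2 scale. Of 50 names that the authors had called both between LRT and HRT and between LRTT and LRT, 44 were nearer and 34 lay within 1.5 times of HRT. Of 33 listed through LRTT against LRT and not LRT against HRT, 1 was nearer, and of 47 listed through LRT against HRT and not LRTT against LRT, 26 were. A gene picked for a difference between LRT and HRT starts far from HRT, and 1 picked for a training difference alone starts near it, so these counts follow from the selection and give no direction for the transcriptome.

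Over the rats, the count table was tested with edgeR's quasi-likelihood test on 13478 genes, and p-values were adjusted by the Benjamini-Hochberg method. Calls required an adjusted p under 0.05 and more than a 1.5-fold difference. Between LRTT and HRT 3 genes were called, 2 higher and 1 lower in LRTT, which is 0.0223% of genes tested. Unadjusted p was under 0.05 in 986 genes, 555 higher and 431 lower, where 673.9 would be expected from uniform p-values. With a fold above 1.5 as well there were 488, or 3.62%, of which 307 were higher and 181 lower. DESeq2's Wald test, an alternative, called 47. The values of the LRTT rats did not overlap those of the HRT rats in 1397 genes, 10.4% of those tested, with 753 higher and 644 lower in LRTT.

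The gene called at the lowest adjusted p was ENSRNOG00000021555. It had 131, 128 and 159 counts in the HRT rats, 1, 2 and 6 in the LRTT rats and 1, 6 and 3 in the LRT rats. HRT stood apart from both low responder groups, in which 4 of the 6 libraries were at 3 counts or fewer. Scaled to library size as CPM, it had 4.11 ± 0.513 (SD, n = 3) in HRT, 0.0906 ± 0.0642 in LRTT and 0.0834 ± 0.0653 in LRT. The log2 difference between LRTT and HRT was -5.39 (SE 0.43, adjusted p = 0.000458 by edgeR), and it was called in all 12 fits that leave out a library. The same gene was the only 1 called between LRT and HRT, at a log2 difference of -5.57 (adjusted p = 0.000268 by edgeR). It was at or near 0 in the low responder line both with and without training.

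ENSRNOG00000020669 had 189, 193 and 263 counts in the LRTT rats, 50, 49 and 48 in the HRT rats and 259, 148 and 122 in the LRT rats. Every low responder rat, trained or not, was above every HRT rat. Its CPM was 6.92 ± 0.994 (SD, n = 3) in LRTT, 1.45 ± 0.0974 in HRT and 4.44 ± 1.99 in LRT, a log2 difference of 2.25 between LRTT and HRT (SE 0.28, adjusted p = 0.0192 by edgeR). Neither LRT against HRT (log2 1.61, adjusted p = 0.196 by edgeR) nor LRTT against LRT (0.64, adjusted p = 0.989) passed the test.

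ENSRNOG00000005176 had 613, 427 and 802 counts in the LRTT rats, 336, 318 and 271 in the HRT rats and 471, 526 and 571 in the LRT rats. Its CPM was 19.3 ± 1.89 (SD, n = 3) in LRTT, 9.12 ± 1.29 in HRT and 13.004 ± 0.765 in LRT, and the 3 groups did not overlap in CPM. The log2 difference between LRTT and HRT was 1.08 (SE 0.14, adjusted p = 0.0192 by edgeR), made of 0.51 from HRT to LRT and 0.57 from LRT to LRTT, neither of which passed (adjusted p = 0.4997 and 0.834 by edgeR). The untrained low responders lay close to midway and the trained ones on the far side of them from HRT. With the replicate number as a block, the adjusted p by edgeR was 0.0700 for ENSRNOG00000020669 and 0.0801 for ENSRNOG00000005176, so neither was called and the count of calls was 1. Both were also lost without LRT replicate 2, LRTT replicate 2, HRT replicate 2, HRT replicate 3 or HRTT replicate 2, and ENSRNOG00000020669 was lost without HRT replicate 1. With only the LRTT and HRT rats in the fit, the adjusted p of ENSRNOG00000005176 by edgeR was 0.170, and 0.157 with the block added.

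The next gene lower in LRTT, ENSRNOG00000010725, missed the threshold. It had 65, 61 and 90 counts in the LRTT rats, 130, 178 and 158 in the HRT rats and 167, 149 and 187 in the LRT rats, so that all 3 trained rats were below all 6 untrained rats. Its CPM was 2.30 ± 0.242 (SD, n = 3) in LRTT, 4.56 ± 0.486 in HRT and 4.17 ± 0.292 in LRT. The log2 difference was -0.99 against HRT (SE 0.16, adjusted p = 0.108 by edgeR) and -0.86 against LRT (adjusted p = 0.475), beside -0.13 between LRT and HRT. DESeq2's Wald test gave an adjusted p of 0.000166 against HRT.

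**Figure D2:**
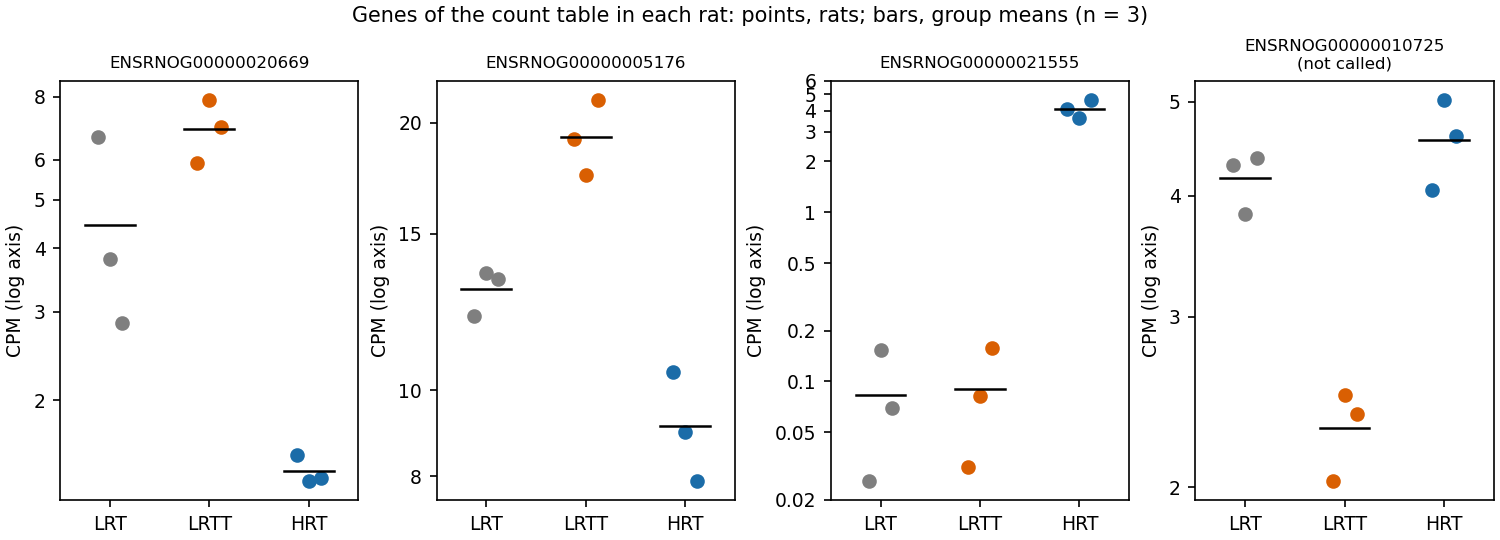
CPM (log axis) of 4 genes of the count table in each rat of LRT, LRTT and HRT, with points for rats and bars for group means of 3 rats. ENSRNOG00000021555 is near 0 in both low responder groups, while ENSRNOG00000010725 is lower in the 3 trained rats than in the 6 untrained rats.

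The comparisons with LRT place these results. Between LRTT and LRT 0 genes were called by edgeR (0% of those tested), with 565 at an unadjusted p under 0.05, and DESeq2 called 8. With an unadjusted p under 0.05 and a fold above 1.5 there were 310, or 2.3%, and 1324 genes, or 9.82%, had no overlap between the rats of the groups. Between LRT and HRT 1 gene was called (0.00742%), with 1288 at an unadjusted p under 0.05, more than the 986 between LRTT and HRT, and 417 at an unadjusted p under 0.05 and a fold above 1.5, or 3.09%, and 2187 genes, or 16.2%, had no such overlap. The median absolute log2 difference was 0.18 between LRT and HRT, 0.16 between LRTT and HRT and 0.14 between LRTT and LRT. In the gene of smallest p between LRTT and LRT, not identified by symbol, the LRT rats had 146, 141 and 167 counts, the LRTT rats 676, 464 and 569 and the HRT rats 469, 765 and 499. Trained low responders overlapped high responders there (log2 0.12), but the difference from LRT (log2 2.29, SE 0.35) missed the threshold with an adjusted p of 0.411 by edgeR. In the gene of smallest p between LRT and HRT after the called one, the LRT rats had 536, 867 and 447 counts, the LRTT rats 805, 731 and 970 and the HRT rats 1523, 1872 and 2541. The trained rats lay between the untrained lines in mean CPM, with 15.5 in LRT, 26.9 in LRTT and 58.2 in HRT, and here too no adjusted p passed (0.102 for LRT against HRT and 0.394 for LRTT against HRT, by edgeR).

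The position of the untrained low responders was also read for all 488 genes with an unadjusted p under 0.05 and a fold above 1.5 between LRTT and HRT. The LRT mean lay nearer to HRT in 237 of them, nearer to LRTT in 240, beyond HRT in 6 and beyond LRTT in 5. The split was 150 against 148 for genes higher in LRTT and 87 against 92 for genes lower. The genes were picked on the LRTT and HRT values, 3 of them passed the adjusted threshold, and nearer means only which side of the midpoint LRT was on, so the even split is a description and gives no direction for training.

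Across the transcriptome, trained low responders lay on average farther from untrained high responders than untrained low responders did, by less than the test could separate from the spread between rats. Each rat's mean Euclidean distance to the 3 HRT rats was taken on log2 CPM of all 13478 genes. It was 83.6, 74.2 and 70.2 for LRTT replicates 1, 2 and 3, a mean of 76.0 ± 6.91 (SD, n = 3). It was 71.2, 68.9 and 60.8 for LRT replicates 1, 2 and 3, a mean of 67.0 ± 5.44. LRTT was farther by 9.01, with 1 LRTT rat inside the range of LRT, and an exact two-sided permutation test over 20 labellings gave p = 0.2, where the smallest possible with 3 against 3 is 0.1. With the replicate number as a block the difference was 1.84 (exact permutation p = 0.6). It was 5.19 without LRTT replicate 1, 5.93 without LRT replicate 3, 4.96 with the variance stabilizing transformation and 5.72 in genes with at least 10 counts in every library. The spread within groups moved with this difference, since pairs of LRTT rats were 81.5 ± 15.04 apart, pairs of HRT rats 68.4 ± 8.50 and pairs of LRT rats 63.6 ± 6.22 (SD, 3 pairs each). The part of that spread in the distance was not tested. Between group means, which average over the rats, LRTT was 45.9 from HRT, LRT was 40.7 from HRT and LRTT was 40.1 from LRT. The nearest library of each of the 9 rats belonged to its own group in 2 cases, so these groups did not form separate clusters.

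**Figure D3:**
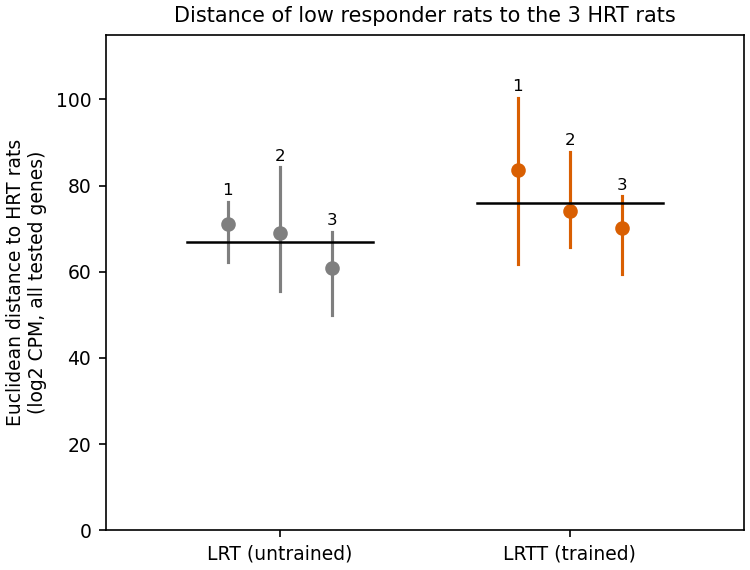
Euclidean distance on log2 CPM of all tested genes from each LRT and LRTT rat to the 3 HRT rats, with points for the rat's mean, vertical lines from its nearest to its farthest HRT rat, horizontal bars for group means and numbers for replicates. The LRTT mean is 76.0 and the LRT mean 67.0, and the 2 sets of rats overlap.

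Counted gene by gene, the direction was close to even. The LRTT mean was nearer to HRT than the LRT mean was in 54.6% of tested genes, with an SD of 3.78 over the 3 HRT rats taken 1 at a time (54.5%, 48.3% and 55.1%). Among the 500 most variable genes the share was 31.6%. Without LRTT replicate 1 or 3 the share over all genes was 48.3% or 47.0%.

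Large differences were uneven between directions and between rats. Of the tested genes, 87 had a fitted difference of more than 4-fold higher in LRTT than in HRT, and 19 of more than 4-fold lower. An unadjusted p under 0.05 was found in 34 of the 87 and in 18 of the 19, and the rats did not overlap in 25 and 14. LRTT replicate 1 was the highest LRTT rat in 62 of the 87 and HRT replicate 1 the highest HRT rat in 64, while replicate 2 was the highest LRTT rat in 8. Without LRTT replicate 1 there were 66 such genes, 59 of them with an unadjusted p under 0.05, and without HRT replicate 1 there were 169, with 56 at that p. Without LRTT replicate 3 the genes more than 4-fold lower numbered 75.

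**Figure D4:**
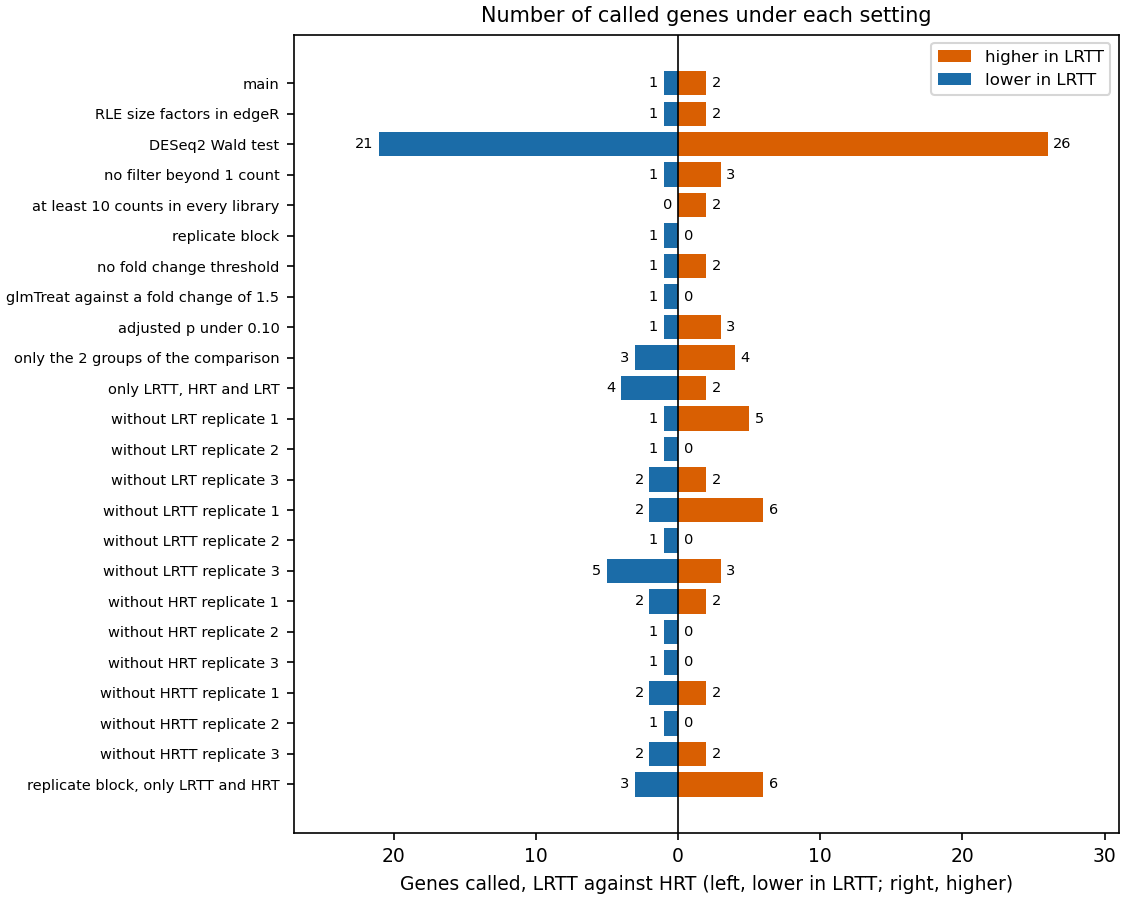
Number of genes called between LRTT and HRT under each setting, with genes lower in LRTT to the left and genes higher in LRTT to the right of 0. Counts run from 1 with the replicate block to 47 with the DESeq2 Wald test, beside 3 in the test as reported.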

How the data were processed

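RNA from gastrocnemius of 3 rats per group was sequenced by the authors as single reads of 50 bases. Raw counts per Ensembl gene were deposited by the authors, made per the file headers with featureCounts 1.6.4 and Ensembl release 91 (strand setting 0), so overlapping and antisense genes can share counts. The methods name TopHat2 (version 2.1.1 in the processing notes) and Rnor_6.0, but the alignments named in the count table's header have names of the form STAR writes, so the aligner behind the counts is uncertain. The methods name a stranded library kit, and the labels do not call theirs stranded. The levels deposited by the authors in 4 tables of called genes are Cuffdiff values of pooled replicates, treated here as a signal, since no unit is named. The tables were normalized separately, and a group's level differed by at most 2.51% between them. Their fold changes, p-values and q-values were not used.

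The software was edgeR 4.0.16 and limma 3.58.1, with DESeq2 1.42.0 as an alternative, under R 4.3.3. The 12 LRT, LRTT, HRT and HRTT libraries were fitted together (filterByExpr with a count minimum of 10, TMM, robust quasi-likelihood) with contrasts between groups. Distances used log2 CPM with a prior count of 2. The biological coefficient of variation was 23.8%. The chi-square per gene between replicates was 39.8 to 281, and no pair was merged. The methods give 3 rats per group.

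Deviations of same-numbered LRTT and HRT rats from their group means correlated across genes at 0.505, 0.119 and 0.309 for replicates 1, 2 and 3. Each was above 0.1, the threshold for counting replicate numbers as pairs. The correlations were -0.250, 0.019 and 0.200 between LRTT and LRT, and -0.289, -0.211 and 0.094 between LRT and HRT. Rats of different numbers were not compared, so these values cannot show a pairing. The block in the fit of 12 libraries also spans LRT, where the threshold was not met in each. The tests as reported have no block, and blocked values are given beside the results they change. Any pairing would rest on these values alone, since the sources name no shared litter, batch or day.

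The members, gene lists and tests were chosen with earlier results of these data known. The rule for named genes was the called genes, filled with the smallest p, with at most 2 identifiers in each direction since no symbols were paired, and list members with a pooled level. Of 137 names, 116 were RefSeq symbols. A marker that was listed is not reported here. Alternatives are given in the closing section. Added after seeing the data were the block with only LRTT and HRT and the levels from the other table.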

Additional observations from a re-analysis of the deposited data

How the results depend on the processing

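Among the counts of called genes, DESeq2's Wald test gave 47 for LRTT against HRT (26 higher, 21 lower), 8 for LRTT against LRT and 20 for LRT against HRT, beside 3, 0 and 1 with edgeR. Fitted with only the 2 groups of the comparison, the counts were 7, 1 and 5, and with only LRTT, HRT and LRT they were 6, 1 and 4. For LRTT against HRT, the replicate block gave 1 and glmTreat, which tests against the 1.5-fold limit itself, gave 1. The block with only LRTT and HRT, added after seeing the data, gave 9 (6 higher, 3 lower). In the fit of 12 libraries, the block left the counts for LRTT against LRT and LRT against HRT at 0 and 1. With at least 10 counts in every library, 0 genes were called for LRT against HRT, because the 1 called gene did not pass that filter. Leaving out 1 library at a time gave 1 to 8 calls for LRTT against HRT, 0 to 3 for LRTT against LRT and 1 to 4 for LRT against HRT. The count for LRTT against HRT was 8 without LRTT replicate 1 and without LRTT replicate 3, 6 without LRT replicate 1, and 1 without LRT replicate 2, LRTT replicate 2, HRT replicate 2, HRT replicate 3 or HRTT replicate 2. For LRTT against LRT it was 3 without LRTT replicate 3 and 1 without LRTT replicate 1 or HRTT replicate 1. For LRT against HRT it was 4 without LRT replicate 1 or 2, 3 without HRT replicate 1, and 2 without LRT replicate 3, HRTT replicate 1 or HRTT replicate 3. The causes were not tested. DESeq2's size factors in edgeR left the counts at 3, 0 and 1.

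LRTT was farther from HRT than LRT under every alternative run, by 1.84 with the replicate block and by 5.19 to 11.9 with 1 library left out. The share of genes with the LRTT mean nearer to HRT was 31.6% in the 500 most variable genes and 47.0% to 58.9% with 1 library left out. Taking the levels from the other table shifted the log2 ratio of LRTT to HRT by at most 0.03 and moved 0 names across 1.5 times. With 3 rats per group and 1 pooled value per symbol, the named levels carry no error.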
